A study of Mus musculus with 9 samples.

Results

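The genes Il4, Il13, Il5, Il4ra, Il5ra, Gata3, Retnla, Alox15, Siglecf and Rnase2a belong to type 2 immunity and to the biology of eosinophils. They were picked by name, with their signals in these data already known, so their values are given as a description, with no p-value, and no support is drawn from them. A probe set, which is a group of short probes that read a transcript together, was taken where the annotation of the array gives exactly 1 gene symbol and that symbol is on the list. This found 12 of the 45101 probe sets of the array, for 10 of the 18193 genes that are named in this way. RNA was measured in stromal vascular fractions (SVFs), the mixed cells that remain after fat is digested and spun free of adipocytes, from inguinal fat of wild type Balb/c mice aged 10 weeks. The fat was injured by surgery and SVFs were taken on day 0, 1 or 3, with 3 arrays per day from individual mice. The study describes male mice and defines priming as mincing of the fat together with ligation of its artery, whereas the labels speak of priming and of days after injury without naming ischemia, and day 0 is taken here as nonprimed. An SVF is a mixture, so fewer cells of a type and less RNA per cell cannot be told apart in these signals.

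Type 2 immunity is the branch of immunity known from worm infection, allergy and tissue repair. T helper 2 cells and group 2 innate lymphoid cells (ILC2s), which both need the transcription factor GATA3, secrete IL-4, IL-5 and IL-13. IL-4 and IL-13 signal through the IL-4 receptor alpha chain and the transcription factor STAT6 and turn on genes such as Retnla in mouse macrophages, while IL-5 supports eosinophils, which live in healthy mouse fat beside ILC2s.

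Because STAT6 connects the cytokines with their targets, the 250 bases before the transcription start were searched for TTCNNNNGAA, a palindrome of the type that STAT6 prefers. The sequences are those of RefSeq, build GRCm38.p6, which is the C57BL/6J strain and not the strain of these mice. Of the 10 genes, 9 had a promoter entry, with 2 starts and so 2 promoters for Il4. The letters were found in 2 of these 10 promoters, that of Retnla and 1 of Il4, against 5.85% of all 32851 promoters of this length. The promoters of Retnla (chr16:48842359-48842608, plus strand), of the upstream start of Il4 (chr11:53618666-53618915, minus strand) and of Rnase2a (chr14:51256113-51256362, minus strand) are shown as the 2 with a match and the gene with the lowest day 3 values relative to day 0, which has none. Capitals mark the match, whose first base lies at position -145 in Retnla and at position -167 in Il4, counted back from -1 at the base before the start.
Retnla: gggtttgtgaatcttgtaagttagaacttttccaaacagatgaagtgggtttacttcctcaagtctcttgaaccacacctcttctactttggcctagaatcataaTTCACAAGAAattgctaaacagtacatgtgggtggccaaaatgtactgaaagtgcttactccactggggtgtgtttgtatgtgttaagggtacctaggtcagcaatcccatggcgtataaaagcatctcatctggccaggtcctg
Il4: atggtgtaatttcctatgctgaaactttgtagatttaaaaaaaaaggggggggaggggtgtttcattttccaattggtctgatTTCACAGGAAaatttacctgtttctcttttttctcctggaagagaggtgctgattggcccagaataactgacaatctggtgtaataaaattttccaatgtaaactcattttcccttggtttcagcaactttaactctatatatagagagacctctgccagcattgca
Rnase2a: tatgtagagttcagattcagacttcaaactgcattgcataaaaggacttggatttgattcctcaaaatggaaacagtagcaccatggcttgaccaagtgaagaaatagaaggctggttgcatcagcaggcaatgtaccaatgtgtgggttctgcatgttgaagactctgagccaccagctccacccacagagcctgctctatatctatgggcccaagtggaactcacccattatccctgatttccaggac
The shorter palindrome TTCNNNGAA, in which the same ends are a base closer together, was in 0 of the 10 promoters and in 7.02% of all. The letters AGATAA, which GATA factors bind, were found on either strand in those of Il5ra and Il13 and in 9.99% of all. A match is a description of the letters and not evidence of binding.

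The files give a MAS5 signal per probe set, a linear brightness value scaled so that the trimmed mean of each array is 500, and a detection call, which can be present, marginal or absent. Between 24106 and 26299 probe sets were called present per array. Correlations of log2 signals were taken over the 11796 genes that passed the filter given next, at 1 probe set per gene, and not over all probe sets. Pearson's r was between 0.971 and 0.988 between arrays of a day, and between 0.902 and 0.971 between arrays of different days. A gene was fitted where at least 1 day had present calls on all 3 of its arrays, which holds for 11796 genes. Il4, Il5, Il4ra, Gata3, Retnla, Alox15, Siglecf and Rnase2a, 8 of the 10, passed, and each of these was present on all 3 day 0 arrays. Il13 and Il5ra did not pass. The stromal and vascular markers were present on all 9 arrays. The median change over all genes on day 1 against day 0 was -0.13 on the log2 scale, and with medians of the arrays set equal it was 0.02, and changes are to be read against that shift.

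The defining genes of eosinophils were mostly undetected, so these signals are described by gene and not as a count of eosinophils. Prg2 and Prg3, which encode major basic proteins, Epx, the eosinophil peroxidase, and Hrh4, a histamine receptor, were called present on 0 of 9 arrays. Ccr3, the eotaxin receptor, and Rnase2b, a granule ribonuclease, were called present on 1 array each, both on day 3. Of the 16 eosinophil genes listed, 11 are named on the array and 5 passed the filter, which are Gata1, Ltc4s, Alox5, Adgre4 and Itga4. The summed signal of these 5 was 2568 to 3298 on day 0, 2258 to 2657 on day 1 and 2790 to 3461 on day 3. None of Prg2, Prg3, Epx, Hrh4, Ccr3 and Rnase2b enters this sum, so it is not read as a level of eosinophils.

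On day 1, the arrays showed higher Il5 and Siglecf and lower Gata3 and Retnla than on day 0. On day 3, Il4, Gata3, Retnla and Rnase2a were lower than on day 0, and Il4, Il5, Retnla and Rnase2a were lower than on day 1. The day 3 arrays of Il4, Retnla and Rnase2a did not overlap with either other day. Il4ra and Alox15 overlapped between all days, and Il13 and Il5ra were at or near the limit of detection.

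**Figure D1:**
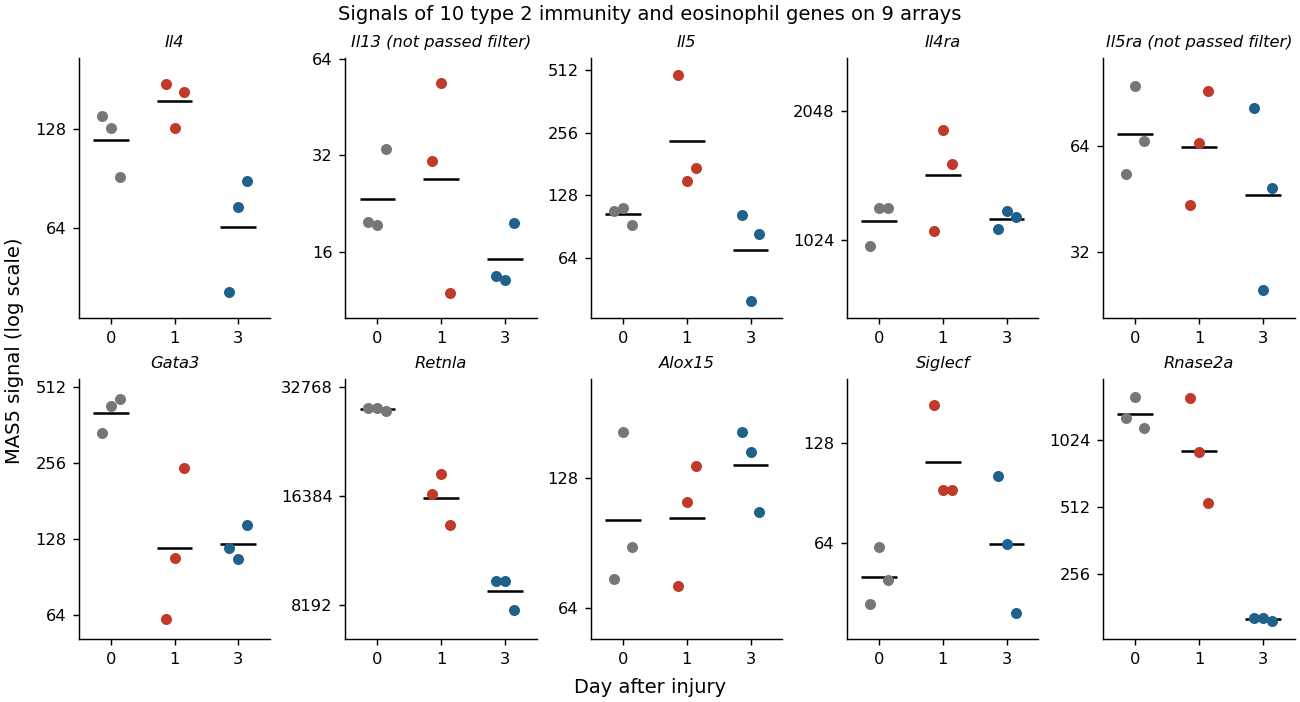
MAS5 signal (log axis, scale set per gene) of the 10 genes by day after injury. Each point is an array, the bar is the geometric mean of the 3 arrays of a day, and the day 3 points of Rnase2a lie between 158 and 164, below every point of day 1 and day 0.

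Il4 encodes the cytokine that drives T helper 2 cells and is also made by basophils and mast cells. Its signal was 141, 129 and 91.8 on day 0, 176, 129 and 166 on day 1, and 41.0, 74.3 and 89.3 on day 3. Every day 3 array was below every array of day 0 and of day 1, while the day 1 arrays overlapped with day 0. The probe set was called present on all 3 arrays of day 0 and of day 1 and on 1 of the day 3 arrays, so the lowest day 3 values are near the limit of detection. The log2 change ± standard error (SE) of the fit was 0.39 ± 0.30 on day 1 against day 0, -0.87 ± 0.30 on day 3 against day 0 and -1.26 ± 0.30 on day 3 against day 1. Without day 3 replicate 1, the lowest array, the day 3 change was -0.54 against day 0 and -0.93 against day 1.

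Il5, the cytokine of eosinophil growth and survival, had signals of 108, 112 and 92.4 on day 0, 487, 150 and 174 on day 1, and 103, 39.4 and 83.3 on day 3, with a present call on all 9 arrays. Day 1 replicate 1 stood far above the other day 1 arrays, and those were still above all of day 0 and day 3. Day 3 overlapped with day 0 through its replicate 1. The fitted log2 change was 1.17 ± 0.44 on day 1 against day 0, -0.57 ± 0.44 on day 3 against day 0 and -1.74 ± 0.44 on day 3 against day 1. Without day 1 replicate 1 the day 1 change was 0.64 and the day 3 change against day 1 was -1.21. Without day 3 replicate 2, the lowest array, the day 3 change against day 1 was -1.33.

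Il13, whose product acts on macrophages, epithelium and fibroblasts, is a neighbor of Il4 on chromosome 11, as is Il5. Its signals of 19.8, 19.4 and 33.6 on day 0, 30.7, 53.6 and 11.9 on day 1 and 13.4, 13.1 and 19.7 on day 3 were called present on 0 of 9 arrays. These values have no order, and a level of Il13 below the detection limit cannot be seen on these arrays.

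The markers of mast cells and basophils, cells that also make type 2 cytokines, went both ways. Of the 11 tested, 3 rose and 1 fell on day 1 against day 0, and 1 rose and 6 fell on day 3 against day 0, at an adjusted p under 0.05 in limma (the threshold from here on). Of all tested genes, 10.7% rose and 17.9% fell on day 1, and 13.6% rose and 12.5% fell on day 3, both against day 0. These shares stand beside the counts of every marker list below. The summed signal of the mast cell and basophil markers was 8964 to 10263 on day 0, 11179 to 14457 on day 1 and 6340 to 7937 on day 3, and Mcpt8, the basophil protease, was absent on all 9 arrays. On day 1, Fcer1a, the IgE receptor chain, rose by 1.77 ± 0.33 (limma, adjusted p = 0.0031) and Hdc, the histamine-forming enzyme, by 1.91 ± 0.20 (adjusted p = 6.4e-05). On day 3 against day 0 neither was past the threshold, whereas Cpa3, a mast cell carboxypeptidase, fell by 1.05 ± 0.16 (adjusted p = 0.00081) and Mcpt4, a mast cell protease, fell by 1.05 ± 0.15 (adjusted p = 0.00056). The others that fell on day 3 were Tpsb2, Cma1, Gata2 and Ms4a2, and Tpsab1 rose on both days. Ms4a2 was absent on every day 3 array and passed the filter through day 0. A difference is built into it, although the count of 6 includes it. On day 1 Gata2 fell, and Cpa3 and Mcpt4 were at -0.02 ± 0.16 and -0.25 ± 0.15 (adjusted p = 0.94 and 0.23). The part of these cells in the Il4 and Il5 values was not tested.

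Il4ra encodes the receptor chain shared by IL-4 and IL-13. The brightest of its 3 probe sets read 995, 1214 and 1217 on day 0, 1075, 1843 and 1543 on day 1, and 1087, 1199 and 1162 on day 3. Of the day 1 arrays, 2 were above all others, and replicate 1 lay within the day 0 range. Its log2 change was 0.35 ± 0.18 on day 1 against day 0, 0.01 ± 0.18 on day 3 against day 0 and -0.34 ± 0.18 on day 3 against day 1. Without day 1 replicate 1 the first was 0.57 and the last -0.55. The other probe sets gave 0.22 and 0.37 on day 1 against day 0 and 0.06 and 0.05 on day 3 against day 0, so the direction was the same in all 3.

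Il5ra, the specific chain of the IL-5 receptor and a gene of eosinophils, was called present on 1 of 9 arrays, day 0 replicate 1. Its signals ran between 53.2 and 94.6 on day 0, 43.5 and 91.2 on day 1, and 24.9 and 82.1 on day 3. The days overlapped throughout, and no change could be measured.

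Gata3 encodes the transcription factor of T helper 2 cells and ILC2s, which other T cells also use during their development. Its signal was 336, 431 and 456 on day 0, 61.8, 108 and 243 on day 1, and 117, 106 and 145 on day 3. All day 1 and day 3 arrays were below all day 0 arrays, and the day 1 arrays spread widely, from an absent call in replicate 1 to the highest later value in replicate 3. On the log2 scale the change was -1.78 ± 0.38 on day 1 against day 0, -1.73 ± 0.38 on day 3 against day 0 and 0.06 ± 0.38 on day 3 against day 1. In the 9 fits that each left out 1 array, the change against day 0 lay between -2.31 and -1.32 on day 1 and between -1.86 and -1.63 on day 3.

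T cell markers were lower on the same arrays as Gata3. Of the 10 that passed the filter, 7 fell and 0 rose on day 1 against day 0, and again 7 fell and 0 rose on day 3 against day 0. Their summed signal was 24494, 28811 and 25158 on day 0, 5667, 16149 and 18346 on day 1, and 8732, 9791 and 13233 on day 3. The order of the day 1 arrays was that of Gata3, with replicate 1 lowest and replicate 3 highest. On day 0 and on day 3 the orders of the arrays differed. On day 0 Gata3 was highest in replicate 3 and the sum in replicate 2, and on day 3 Gata3 was lowest in replicate 2 and the sum in replicate 1. Cd8a, the CD8 alpha chain, fell by 1.54 ± 0.34 on the log2 scale on day 1 (limma, adjusted p = 0.0077) and fell by 1.59 ± 0.34 on day 3 (adjusted p = 0.0058). The B cell markers were lower too, with 2 of 6 past the threshold on day 1 and 4 of 6 on day 3. The part of these cells in the Gata3 values was not tested.

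Retnla, which encodes the secreted resistin-like molecule alpha of IL-4-stimulated macrophages, was a bright probe set with a signal of 28609, 28617 and 28049 on day 0. It read 16533, 18815 and 13592 on day 1, and 9526, 9563 and 7920 on day 3. The 3 days formed separate steps with no overlap. The change on the log2 scale was -0.81 ± 0.12 on day 1 against day 0, -1.66 ± 0.12 on day 3 against day 0 and -0.85 ± 0.12 on day 3 against day 1, which is a 3.17-fold lower signal on day 3 than on day 0. The brightest probe sets of the 9 arrays read 36585 to 43081, so the day 0 values were in the upper range of the array. The macrophage markers went both ways. Of 12 tested, 4 rose and 1 fell on day 1 against day 0, and 4 rose and 2 fell on day 3 against day 0, with summed signals of 70412 to 81455 on day 0, 79954 to 94459 on day 1 and 87100 to 104240 on day 3. Those higher on day 3 than on day 0 were Adgre1, Cd68, Mertk and Fcgr1, with log2 changes from 0.52 (Mertk) to 3.23 (Fcgr1). Those lower on day 3 were Timd4, a receptor of resident macrophages, with a change of -1.20 ± 0.15 (adjusted p = 0.00016), and Lyve1, a hyaluronan receptor of resident macrophages and lymphatic vessels, with a change of -0.71 ± 0.13 (adjusted p = 0.0027). The remaining markers, Csf1r, Lyz2, C1qa, C1qb, C1qc and Folr2, were not past the threshold on day 3 against day 0. The part of these cells in the Retnla values was not tested.

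Alox15 encodes the lipoxygenase that makes lipid mediators in resident macrophages and eosinophils. Its signal was 74.5, 163 and 88.3 on day 0, 71.7, 112 and 136 on day 1, and 163, 147 and 106 on day 3, present on all 9 arrays. The 3 days overlapped, with a low and a high array on day 0 and on day 1. In the fit, the log2 change was 0.01 ± 0.33 on day 1 against day 0, 0.42 ± 0.33 on day 3 against day 0 and 0.41 ± 0.33 on day 3 against day 1.

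Siglecf, a sialic acid receptor on eosinophils and alveolar macrophages, had signals of 41.8, 62.2 and 49.5 on day 0, 167, 92.5 and 92.5 on day 1, and 102, 63.7 and 39.3 on day 3. All day 1 arrays were above all day 0 arrays, and day 3 overlapped with both. The log2 change was 1.16 ± 0.37 on day 1 against day 0, 0.33 ± 0.37 on day 3 against day 0 and -0.83 ± 0.37 on day 3 against day 1. The day 1 change was 0.87 without day 1 replicate 1, the highest of that day. Neutrophil markers were higher on the same day: of 8 tested, 6 rose and 0 fell on day 1 against day 0, and their summed signal was 6287 to 9056 on day 0, 46797 to 81428 on day 1 and 12041 to 24155 on day 3. Cxcr2, a neutrophil chemokine receptor counted among the 6, was absent on every day 0 array and passed the filter through day 1. Their part in the Siglecf values was not tested.

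Rnase2a encodes a ribonuclease of the eosinophil-associated family, whose members are close in sequence, so its probe set may also read relatives. Its signal was 1277, 1592 and 1161 on day 0, 1570, 905 and 532 on day 1, and 164, 163 and 158 on day 3. The day 1 arrays ran from the day 0 range down to well below it, whereas the day 3 arrays were close together and below all others. The fit gave a log2 change of -0.55 ± 0.30 on day 1 against day 0, -3.04 ± 0.30 on day 3 against day 0 and -2.50 ± 0.30 on day 3 against day 1, so the day 3 signal was 8.25-fold lower than on day 0. Leaving out 1 array kept the day 3 change between -3.14 and -2.92 against day 0. The day 1 change was -0.94 without day 1 replicate 1, which had the highest Rnase2a, Il5 and Siglecf and the lowest Gata3 of day 1.

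**Figure D2:**
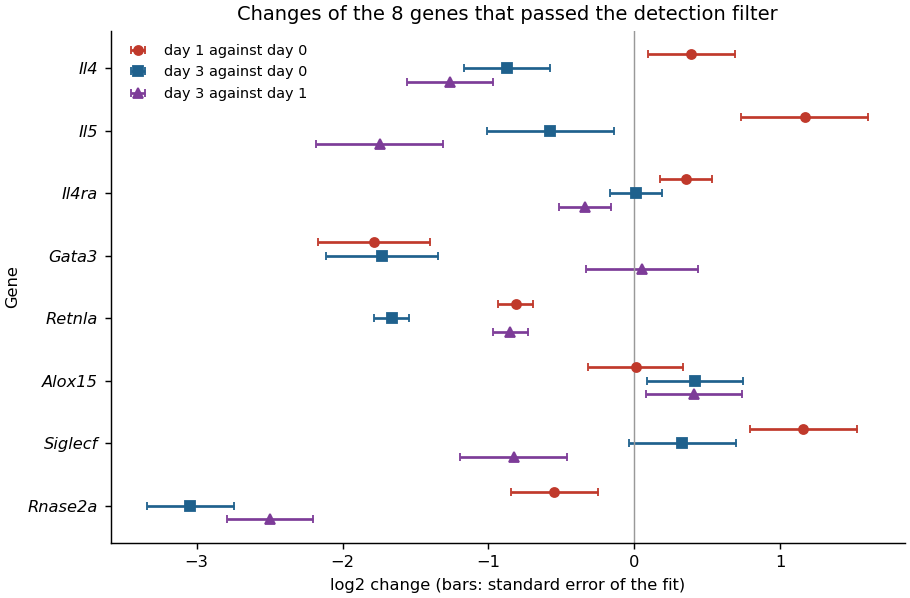
Log2 change of the 8 genes that passed the detection filter in each comparison, with the SE of the fit as bars. Rnase2a on day 3 against day 0 lies farthest from 0 at -3.04, Il5 and Siglecf lie right of 0 on day 1, and Il4ra and Alox15 lie within 0.42 of 0 in every comparison.

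Counted over the 8 genes, 1 was higher and 2 were lower on day 1 at an adjusted p under 0.05 in limma, against day 0, where 10.7% of all tested genes were higher and 17.9% lower. On day 3 against day 0 the count was 0 higher and 4 lower, where 13.6% of all genes were higher and 12.5% lower. Of these 4, Il4 stayed past the threshold in 2 of the 9 fits that each left out 1 array. On day 3 against day 1 the count was 0 higher and 4 lower, where 9.66% of all genes were higher and 4.54% lower. The groups did not overlap for 4 of the 8 genes in each comparison, where this holds for 40.0%, 47.2% and 35.0% of all genes in the same order. The median change of the 8 was 0.18, -0.72 and -0.84, and that of all genes -0.13, -0.03 and 0.09. The genes were chosen with these changes known, so nothing is read from these counts. The share of lower genes among all genes past the threshold on day 1 moved with the scaling, at 62.5% as deposited and 38.2% after median centring, and likewise on day 3 against day 1, at 32.0% and 51.9%. The comparisons share arrays and are not independent of each other.

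By signal over the 9 arrays, the genes most like Gata3 in the fitted set were Cd8a (Pearson's r = 0.990), Mllt3 (0.987) and Rnf167 (0.985). Those most like Rnase2a were the mast cell protease Mcpt4 (r = 0.980), Cd209d (0.968) and Ces1d (0.967), and those most like Retnla were Gabra3 (0.980), Dpep1 (0.975) and Cpq (0.974). Il5 was nearest to 4930459C07Rik (r = 0.969), and Siglecf to Cyb561d2 (0.966). Il4 was nearest to 8430422H06Rik (r = 0.932), Il4ra to Lfng (0.914) and Alox15 to Aimp1 (0.904). These correlations rest on 9 arrays that fall into 3 days, and the top genes among many are similar in any case, so they are given as a description.

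The wider genes of the pathway, 93 genes in 7 lists chosen with earlier results of these data known, were set beside the 10 genes to show which other steps changed. Of these, 83 are named on the array and 61 passed the filter. On day 1 against day 0, 20 rose and 13 fell, on day 3 against day 0, 16 rose and 15 fell, and on day 3 against day 1, 2 rose and 11 fell, at an adjusted p under 0.05 in limma over all genes tested. Of all tested genes, 10.7% rose and 17.9% fell in the first comparison. The shares were 13.6% and 12.5% in the second and 9.66% and 4.54% in the third. The median change over the 61 was 0.02, 0.01 and -0.19. The lists were chosen with results known, so nothing is read from these counts. Il13ra2, Arg1, Chil3 and Chil4 were absent on every day 0 array and passed the filter through a later day, and Il21 was absent on every day 3 array and passed through day 0. A difference is built into such genes, so they are described without a p between those days, although the counts include Il13ra2, Arg1 and Chil3 as higher and Il21 as lower.

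Of the cytokines and alarmins, which start or accompany a type 2 response, 5 passed the filter, 4 rose on day 1 and 3 rose and 1 fell on day 3 against day 0. Il33, the alarmin that activates ILC2s, read 1229, 1532 and 1473 on day 0, 7659, 6394 and 5091 on day 1, and 3025, 4903 and 2450 on day 3. It rose by 2.16 ± 0.23 on day 1 (adjusted p = 6e-05) and by 1.24 ± 0.23 on day 3 (adjusted p = 0.0024), both against day 0, with no overlap. Csf2, the myeloid growth factor GM-CSF, rose by 2.28 ± 0.22 on day 1 (adjusted p = 3.7e-05) and by 2.07 ± 0.22 on day 3 (adjusted p = 7e-05). Il10, an inhibitory cytokine of many leukocytes, rose by 1.58 ± 0.24 on day 1 (adjusted p = 0.00077) and by 1.79 ± 0.24 on day 3 (adjusted p = 0.00029). The alarmin Tslp rose by 0.71 ± 0.19 on day 1 (adjusted p = 0.020) and was 0.22 ± 0.19 above day 0 on day 3 (adjusted p = 0.43). Il21, a cytokine of helper T cells and the gene counted as lower, was at -1.41 ± 0.47 on day 3 against day 0 and was called present on 3 arrays of day 0, 1 of day 1 and 0 of day 3. The ILC2 activator Il25 and the mast cell growth factor Il9 were absent on all 9 arrays. Il33 fell by 0.93 ± 0.23 on day 3 against day 1 (adjusted p = 0.021), a call lost without day 1 replicate 1 or 2 or day 3 replicate 1 or 3 (adjusted p 0.063 to 0.085).

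Of the receptors and signaling genes, 16 passed, with 6 higher and 2 lower on day 1, 4 higher and 2 lower on day 3 against day 0, and 0 higher and 2 lower on day 3 against day 1. Il13ra2, the IL-13 receptor that is known as a decoy, read 17.7, 63.1 and 36.8 on day 0 with absent calls, 699, 380 and 201 on day 1, and 141, 275 and 195 on day 3. It was 10.9-fold higher on day 1 and 5.70-fold higher on day 3 than on day 0 in geometric means of the measured signals. With absent calls on day 0, these folds depend on background signal. Il13ra1, the signaling partner of Il4ra, rose by 1.07 ± 0.20 on day 1 (adjusted p = 0.0027) and was 0.44 ± 0.20 above day 0 on day 3 (adjusted p = 0.12). Stat6, the transcription factor itself, was measured at -0.10 ± 0.10 on day 1 and 0.01 ± 0.10 on day 3 (adjusted p = 0.46 and 0.95). The kinases Jak3 and Tyk2 were not past the threshold in any comparison. The kinase Jak1 fell by 0.28 ± 0.09 on day 1 (adjusted p = 0.044) and by 0.54 ± 0.09 on day 3 (adjusted p = 0.0017), both against day 0. Cish, the other gene of this list lower than on day 0, fell by 0.65 ± 0.15 on day 1 (adjusted p = 0.0098) and by 0.55 ± 0.15 on day 3 (adjusted p = 0.021).

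Il1rap, the partner of the IL-33 receptor, rose by 1.46 ± 0.15 on day 1 (adjusted p = 6.2e-05) and by 0.59 ± 0.15 on day 3 (adjusted p = 0.016), and on day 3 against day 1 it fell by 0.86 ± 0.15 (adjusted p = 0.0043). Its day 3 call against day 0 was lost without day 0 replicate 2 or day 3 replicate 1 or 2 (adjusted p 0.050 to 0.053). Csf2rb, the chain that the receptors for IL-3, IL-5 and GM-CSF share, rose by 0.80 ± 0.13 on day 1 (adjusted p = 0.0014) and 0.87 ± 0.13 on day 3 (adjusted p = 0.00068). Its close copy Csf2rb2, the mouse chain for IL-3, rose by 0.56 ± 0.16 on day 1 (adjusted p = 0.023) and 0.61 ± 0.16 on day 3 (adjusted p = 0.016), and probes for the copies may share transcripts. The calls of Csf2rb2 were lost on day 1 without day 0 replicate 1 or 2 or day 1 replicate 1 (adjusted p 0.052 to 0.088) and on day 3 without day 0 replicate 2 or day 3 replicate 1 (adjusted p 0.057 to 0.075). Crlf2, the TSLP receptor, rose by 0.58 ± 0.10 on day 1 (adjusted p = 0.0024). It then fell by 0.42 ± 0.10 on day 3 against day 1 (adjusted p = 0.022), a call lost without day 1 replicate 1 or 2 or any single day 3 array (adjusted p 0.056 to 0.083).

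Of the T helper 2 and ILC2 genes, 10 passed, with 1 higher and 4 lower on day 1 and 1 higher and 3 lower on day 3 against day 0. Rora, a nuclear receptor that ILC2s need, fell by 0.52 ± 0.11 on day 1 (adjusted p = 0.0051) and fell by 0.68 ± 0.11 on day 3 (adjusted p = 0.00082). These values are from the brightest of its 7 probe sets that passed the filter. Over the 7, the change against day 0 lay between -0.52 and -0.05 on day 1 and between -0.95 and -0.32 on day 3. Bcl11b, a factor of T cells and ILC2s, fell by 1.55 ± 0.46 on day 1 (adjusted p = 0.027), a call lost without day 0 replicate 1 or 3 or day 1 replicate 2 (adjusted p 0.054 to 0.088). Irf4, a factor of activated lymphocytes, fell by 1.12 ± 0.33 on day 1 (adjusted p = 0.027) and fell by 1.04 ± 0.33 on day 3 (adjusted p = 0.038). Its day 1 call was lost without day 0 replicate 1 or 3 or day 1 replicate 1 or 2 (adjusted p 0.078 to 0.10), and its day 3 call without any single day 0 array or day 3 replicate 1 or 2 (adjusted p 0.066 to 0.15). Gfi1, a repressor that acts in lymphocytes and myeloid cells, fell by 1.15 ± 0.39 on day 1 (adjusted p = 0.045), a call lost on leaving out any of 7 single arrays, all but day 1 replicate 3 and day 3 replicate 3 (adjusted p 0.052 to 0.16). Icos, a costimulatory receptor of T cells and ILC2s, fell by 1.33 ± 0.34 on day 3 (adjusted p = 0.014), a call lost without day 3 replicate 1 or 2 (adjusted p 0.053 to 0.063). The genes counted as higher were Id2 on day 1 and Maf on day 3. Id2 rose by 0.62 ± 0.14 on day 1 (adjusted p = 0.0072) and was 0.29 ± 0.14 above day 0 on day 3 (adjusted p = 0.14). Maf was 0.27 ± 0.10 above day 0 on day 1 (adjusted p = 0.058) and rose by 0.55 ± 0.10 on day 3 (adjusted p = 0.0019). Batf and Klrg1 were not past the threshold. The T cell markers given beside Gata3 moved on the same days, and their part in these changes was not tested.

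**Figure D3:**
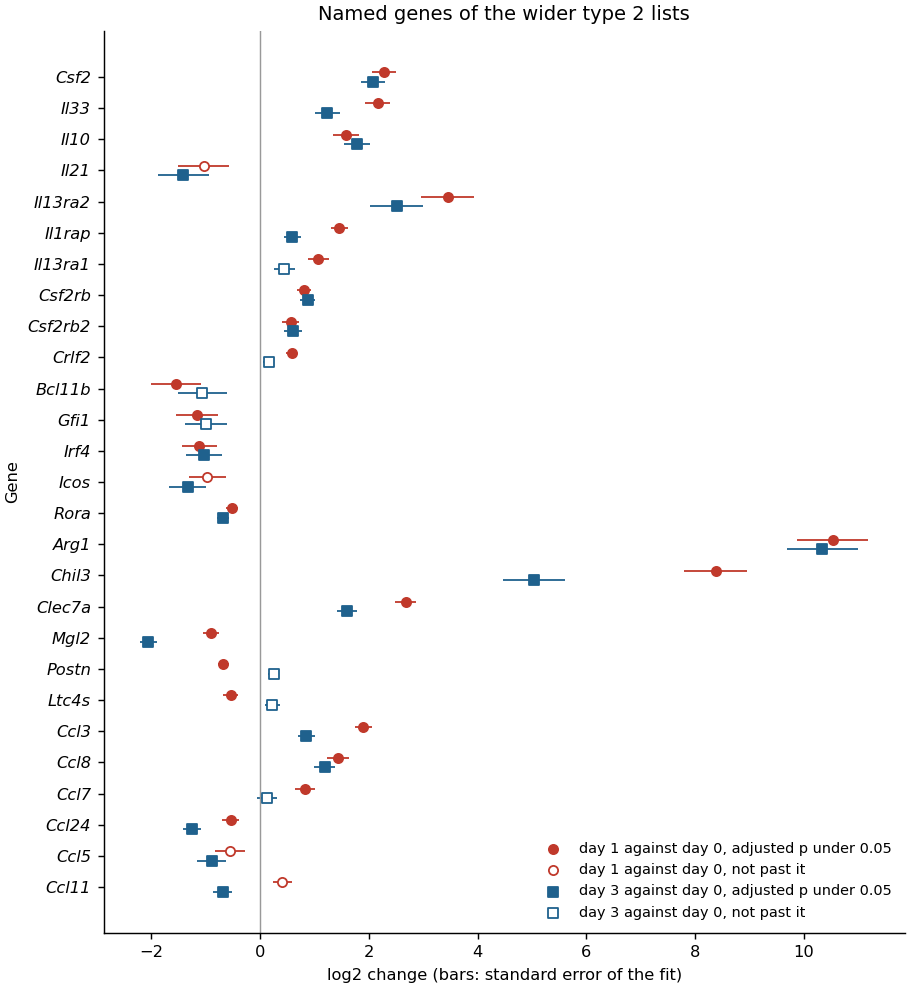
Log2 change of the called genes with the 3 largest changes per comparison in each wider list. Day 1 and day 3 are shown against day 0, with the SE of the fit as bars. Filled markers are past an adjusted p under 0.05. Arg1, Chil3 and Il13ra2, at the right, were absent on every day 0 array and passed the filter through the later days, so their plotted sizes depend on background signal and their difference is built in. Il33 lies at 2.16 on day 1 and 1.24 on day 3.

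Of the IL-4 and IL-13 targets in macrophages, 18 passed, and they went both ways: 6 rose and 4 fell on day 1, 6 rose and 6 fell on day 3 against day 0, and 0 rose and 4 fell on day 3 against day 1. Arg1, the arginase of alternatively activated macrophages and other myeloid cells, read 4.01, 1.92 and 22.2 on day 0 with absent calls, 12316, 6798 and 6539 on day 1, and 6449, 8670 and 6581 on day 3. It was 671-fold higher on day 1 and 588-fold higher on day 3 than on day 0, with day 0 set at a floor. Such a fold is a ratio of geometric means. For each day 0 array it takes the measured signal or the lowest present signal of that array, whichever is higher. An absent probe set can read above that floor, so the fold depends on background signal and is not a firm bound. For Il13ra2 the measured signal was the higher on every day 0 array. Chil3, a chitinase-like protein of macrophages and neutrophils with a close copy in Chil4, was absent on day 0 and read 4500, 6846 and 4454 on day 1 and 444, 572 and 522 on day 3. It was 252-fold higher on day 1 and 24.9-fold higher on day 3 than on day 0 with the same floor and limit. It fell by 3.34 ± 0.57 on the log2 scale on day 3 against day 1 (adjusted p = 0.0035). The part of the neutrophil markers given beside Siglecf in the Chil3 values was not tested.

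Mgl2, a galactose-binding lectin of macrophages and dendritic cells, was lower from day to day, as Retnla was. It read 2561, 2796 and 2737 on day 0, 1814, 1249 and 1326 on day 1, and 746, 602 and 607 on day 3, with no overlap between days. It fell by 0.90 ± 0.15 on day 1 (adjusted p = 0.0017) and fell by 2.06 ± 0.15 on day 3 (adjusted p = 4.9e-06), both against day 0. Clec7a, the beta-glucan receptor, rose by 2.67 ± 0.19 on day 1 (adjusted p = 2.9e-06) and 1.60 ± 0.19 on day 3 (adjusted p = 0.00014). Chil4 and the hemoglobin scavenger Cd163 were not past the threshold. Of the 6 IL-13 targets in stroma and epithelium, Postn alone passed the filter, and the chloride channel regulator Clca1 and the mucin Muc5ac did not. Postn, the matrix protein periostin, read 19189, 16647 and 17522 on day 0, 12874, 10759 and 9893 on day 1, and 20884, 21093 and 21407 on day 3. It fell by 0.68 ± 0.10 on day 1 (adjusted p = 0.00087) and was above day 1 on day 3 by 0.93 ± 0.10 (adjusted p = 0.00025), whereas the 0.25 ± 0.10 on day 3 against day 0 was not past the threshold (adjusted p = 0.097).

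Of the 6 chemokines known to attract eosinophils, all passed, with 3 higher and 1 lower on day 1, 2 higher and 3 lower on day 3 against day 0, and 0 higher and 4 lower on day 3 against day 1. Ccl11, or eotaxin, read 3357, 4873 and 4189 on day 0, 6986, 5182 and 4421 on day 1, and 2302, 2819 and 2531 on day 3, all day 3 values below all others. It was 0.41 ± 0.18 above day 0 on day 1 (adjusted p = 0.10), fell by 0.69 ± 0.18 on day 3 against day 0 (adjusted p = 0.015) and fell by 1.09 ± 0.18 against day 1 (adjusted p = 0.0024). Its day 3 call against day 0 was lost without day 0 replicate 2 or 3 or day 3 replicate 1 (adjusted p 0.050 to 0.065). Ccl24, another eotaxin, fell by 0.54 ± 0.16 on day 1 (adjusted p = 0.029), fell by 1.25 ± 0.16 on day 3 against day 0 (adjusted p = 0.00026) and fell by 0.71 ± 0.16 on day 3 against day 1 (adjusted p = 0.016). The day 1 call was lost without any single day 0 array or day 1 replicate 2 or 3 (adjusted p 0.057 to 0.10), and the call between day 3 and day 1 without day 3 replicate 1 or 3 (adjusted p 0.056 to 0.068).

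The chemokines Ccl3, Ccl7 and Ccl8, which act on many leukocytes, were higher on day 1. Ccl3 rose by 1.90 ± 0.15 on day 1 (adjusted p = 6.5e-06) and 0.85 ± 0.15 on day 3 (adjusted p = 0.0019), and Ccl8 by 1.43 ± 0.19 (adjusted p = 0.0004) and 1.19 ± 0.19 (adjusted p = 0.0012). Ccl7 rose by 0.82 ± 0.18 on day 1 (adjusted p = 0.0081) and on day 3 against day 1 it fell by 0.69 ± 0.18 (adjusted p = 0.029), a call lost without day 1 replicate 1 or 2 or any single day 3 array (adjusted p 0.056 to 0.12). Ccl5, a chemokine of T cells and other leukocytes, fell by 0.89 ± 0.27 on day 3 (adjusted p = 0.033), a call lost without day 0 replicate 1 or 3 or day 3 replicate 2 (adjusted p 0.072 to 0.11). Of the 5 eosinophil genes that passed the filter, Ltc4s, the leukotriene C4 synthase that mast cells and macrophages also express, was the one past the threshold. It fell by 0.54 ± 0.14 on day 1 (adjusted p = 0.017), a call lost without day 0 replicate 1 or day 1 replicate 2 (adjusted p 0.057 to 0.064), and on day 3 it was 0.77 ± 0.14 above day 1 (adjusted p = 0.0054).

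**Figure D4:**
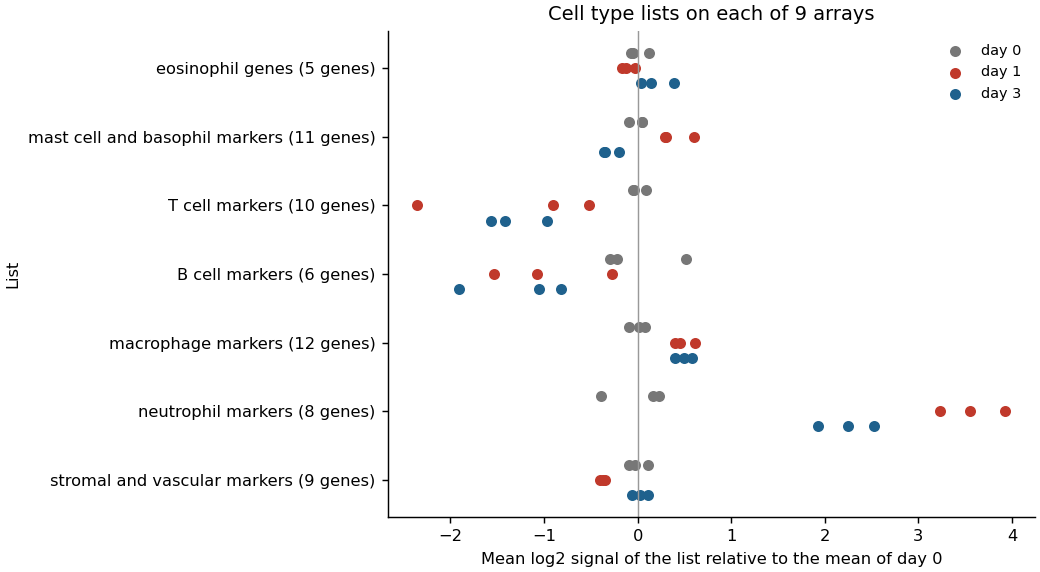
Mean log2 signal of 7 cell type lists on each of the 9 arrays, relative to the mean of day 0. Each point is an array, with T cell markers between -2.35 and -0.52 on day 1 and between -1.57 and -0.97 on day 3, and neutrophil markers between 3.23 and 3.93 on day 1. The eosinophil list holds only Gata1, Ltc4s, Alox5, Adgre4 and Itga4, and none of Prg2, Prg3 and Epx.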

How the data were processed

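RNA of SVFs was measured on 9 one-color Affymetrix Mouse430_2 arrays, 3 per day. The authors summarized the probe intensities to a MAS5 signal per probe set, a scaled intensity on a linear scale, and deposited it with a detection call and its detection p-value. The value table of the series, also deposited, matches the single files within 5e-04 percent. The array names no genome build. Of 45101 probe sets, 34945 carry exactly 1 symbol, 932 carry several, 9160 carry none and 64 are controls.

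The 10 genes and all lists were chosen with earlier results of these data known. Per gene, the brightest probe set that passed the presence filter was used. Log2 signals without an offset were fitted in limma 3.58.1 (lmFit, contrasts.fit, eBayes with trend; R 4.3.3, tables read with version 1.17.8 of data.table), all 9 arrays in 1 fit with day as the factor, 6 residual degrees of freedom and two-sided tests adjusted by Benjamini-Hochberg over 11796 genes. Simulated data with 200 changed genes were used to check the fit. Tables and figures used Python 3.11.15, pandas 2.3.3, numpy 2.4.6 and matplotlib 3.10.9. In each wider list, the called genes with the 3 largest changes per comparison and the first listed genes that were not called are named. Stat6, Jak1, Cish, Tslp, Id2, Maf, Mrc1 and Ccl22 are named outside this rule, and their calls were not followed gene by gene in the alternatives. They and the markers named beside a result were picked after their values were seen. For each of the 8 genes, the 3 most correlated genes were determined.

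Alternatives were quantile normalization, median centring, 16 added to the signals, no filter, probe sets present on all 9 arrays, probe sets averaged per gene, the _x_at and _s_at probe sets left out, no variance trend, a fit on the 6 arrays of a comparison, the replicate number as a block, each array left out in turn, and a one-way ANOVA over the days with a 2-fold limit, run in place of the repeated-measurements ANOVA that the methods name, since each array is another mouse. Listed genes without a probe set of their own name, such as Areg, Il1rl1 and Ear1, were not analysed here. The number of arrays limits the precision. The p-values set a difference between days against the spread between arrays, each of which is another mouse.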

Additional observations from a re-analysis of the deposited data

Results flagged for a closer look

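Some genes stood on opposite sides of day 0 on day 1 and on day 3. For Il4 and Il5 every day 1 array was above and every day 3 array below the day 0 mean, and the difference, day 3 minus day 1, was -1.26 for Il4 and -1.74 for Il5 on the log2 scale. Against day 0, Il4 on day 1 (0.39 ± 0.30) and Il5 on day 3 (-0.57 ± 0.44) overlapped with the day 0 arrays, so 1 side of each pattern is not set apart. As these genes were chosen with their pattern known, the difference between day 3 and day 1 is a description and is given without a p-value. For 3 of the wider genes, the signs of the changes on day 1 and day 3 differed and the difference passed limma's test between the days. It was 0.93 for Postn (adjusted p = 0.00025) and 0.77 for Ltc4s (adjusted p = 0.0054), both lower on day 1 than on day 0, and -1.09 for Ccl11 (adjusted p = 0.0024). On its own, the change of Postn and of Ltc4s on day 3 against day 0 and that of Ccl11 on day 1 against day 0 did not pass the threshold.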

How the results depend on the processing

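No change past the threshold among the 8 genes and the 33 tested genes named by the rule for the wider lists changed its sign under any alternative run. Of the 10 genes, on day 1 against day 0 the count of higher ones was 1 as reported, 2 with quantile normalization, median centring or a replicate block, and 0 with no filter or the one-way test of variance with a 2-fold limit (the variance test), and the count of lower ones was 2 as reported and 1 with presence on all 9 arrays or the variance test. Presence on all 9 arrays leaves out Il4 and Gata3 and gave 2 in place of 4 lower genes on day 3 against day 0. The variance test gave 2 in place of 4 on day 3 against day 1. In the wider lists, the variance test, which adds a 2-fold limit, gave 12 in place of 20 higher and 1 in place of 13 lower on day 1 against day 0, 9 in place of 16 and 4 in place of 15 on day 3 against day 0, and 0 in place of 2 and 5 in place of 11 on day 3 against day 1. Median centring gave 8 in place of 13 lower on day 1, where Gfi1, Ltc4s and Ccl24 were no longer past the threshold, and it ended the day 3 call of Il21. Quantile normalization ended the calls of Gfi1 on day 1 and Il21 on day 3. Leaving out each array gave, on day 1 against day 0, 0 to 2 higher and 2 to 3 lower of the 8 genes and 16 to 22 higher and 6 to 15 lower wider genes. On day 3 against day 0 it gave 0 higher and 3 to 4 lower, and 12 to 19 and 10 to 21. On day 3 against day 1 it gave 0 higher and 3 to 4 lower, and 2 to 3 and 6 to 16. The cause was not tested.

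The study used 3 individual mice per time point, so the replicate numbers of the labels were not taken as pairs. Deviations of same-numbered arrays from their day means correlated between -0.147 and 0.331. With 3 arrays per day, these correlations cannot decide whether the numbers pair arrays. With the replicate block, 2 of the 8 genes were higher on day 1 against day 0, as Il5 passed the threshold, and Il4 on day 3 against day 0 did not. Il4, Il5, Il13, Il5ra, Siglecf and Alox15 are dim probe sets, and small changes in them were not detectable with 3 arrays per day.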
